A study of Mus musculus with 5 samples.

Results

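The MYC, MAX and MXD network is a set of 10 genes whose products bind DNA as pairs through a shared helix-loop-helix and leucine zipper fold: Myc, Mycn, Max, Mxd1, Mxd3, Mxd4, Mxi1, Mnt, Mlx and Mga. Its members were taken by symbol, as every probe set whose platform annotation names 1 of these 10 genes and no other, which gave 26 probe sets for 10 of the 18193 genes on the array. They were measured in activated CD8 T cells from G9C8, a cytotoxic T cell clone kept in culture (3 arrays, each from a separately frozen vial), and from the spleens of NOD.G9C8 transgenic mice of the NOD/LtJ background (2 arrays, 1 for each mouse, at 4 to 8 weeks of age). Both kinds of culture were stimulated over 3 days with 10 µg/ml of an insulin B chain peptide and rested over 2 days with 5 IU/ml of IL2. The comparison therefore sets a long-cultured clone against freshly activated cells of the same labelled specificity. All clone arrays come from 1 clone, and the transgenic cultures began as whole spleen cells, with no sort named in the labels.

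MAX is the common partner of the network. Paired with MYC or its relative MYCN it activates genes of growth, ribosome production and metabolism from the DNA motif CACGTG, the E-box, and paired with an MXD protein, MNT or MGA it represses genes at the same motif. In T cells, MYC is induced by antigen receptor signals and IL2 and drives the growth that precedes division, whereas MXD proteins are best known from cells that stop dividing and differentiate.

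In clone cells transcripts of the common partner Max and of the repressive members Mxd1 and Mga were less abundant, those of the repressive members Mxi1 and Mxd3 were more abundant, and Myc itself was not called. Signals are linear array intensities in arbitrary units. Differences are clone minus transgenic on the scale of log2(signal + 20), where 1 is a doubling of signal + 20. Folds are taken from these differences, so the fold of a dim gene is smaller than the ratio of its signals. A gene, represented by its brightest probe set, was called at a Benjamini-Hochberg adjusted p under 0.05 in limma over all 12446 genes tested. All 10 members lay above the filter on dim probe sets, a mean signal of 88.2, through at least 1 probe set. Mxi1 and Mxd3 were higher, Max, Mxd1 and Mga were lower, and Myc, Mycn, Mxd4, Mnt and Mlx were not called. These 5 calls of 10 stand against a background of 43.8% called among all genes tested (22% of them called higher and 21.7% lower). The groups did not overlap for 7 of the 10 members, against 64.5% of all genes. The median difference of the members was -0.23, against -0.01 over all genes, and their median absolute difference was 0.86, against 0.39. Of the 26 probe sets, 19 passed the filter, of which 4 were called higher, 7 lower and 8 not, against 41.9% of 27022 probe sets called (19.8% higher and 22.1% lower). The groups did not overlap for 14 of the 19, against 63.8% of all probe sets. No member had probe sets called in opposite directions.

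**Figure D1:**
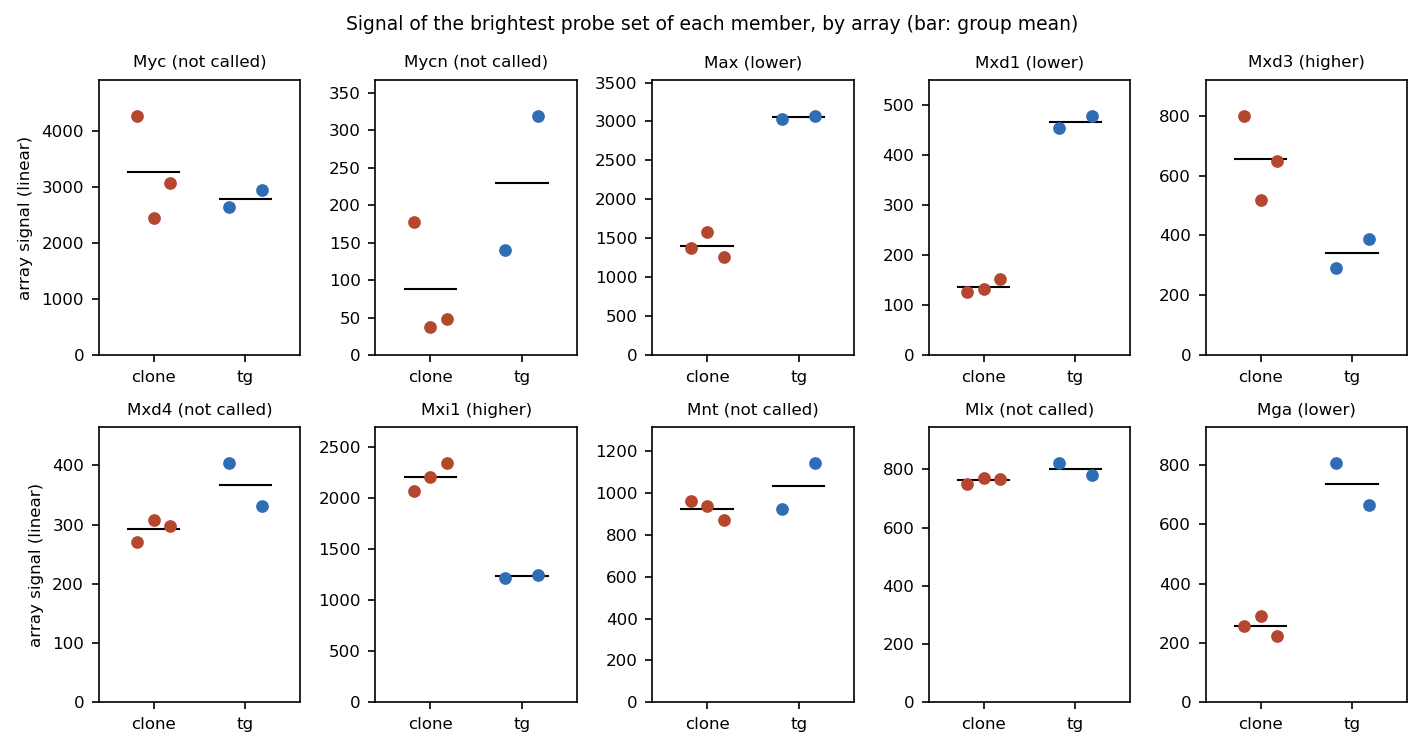
Signal of each member's brightest probe set on the 3 clone arrays (left, red) and the 2 transgenic arrays (right, blue), on a linear axis that starts at 0 in each panel, with bars at the group means. The clone points of Max, Mxd1 and Mga sit well below the transgenic points, those of Mxi1 and Mxd3 sit above them, and those of Myc span the transgenic range.

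The promoter of Max is shown because it carries the network's own motif, and those of Mxd1, Mga and Mxd3 are shown beside it as other members that changed. The sequences are RefSeq windows of the GRCm38.p6 build, written 5′ to 3′ on the gene's strand. Each runs from 250 bases before an annotated start to 50 after it. Positions are given against that start, which need not be the outermost base of the gene. The windows of Mga and Mlx, for example, lie wholly inside the annotated span of the gene. Capitals mark CACGTG, which reads alike on both strands, and CACGCG on either strand. Of the members, 9 had a window and Myc had none here. CACGTG was present in the windows of 4 of these 9 genes, Max, Mxd4, Mnt and Mlx, against 8.09% of all 27025 genes with a window and 11.4% of the 10088 that were tested on the arrays. Of the 5 called members only Max holds it, beginning 3 bases before the start. The variant CACGCG was present in 1 of the 9 genes, Mga (11.1%), against 10.5% of all genes and 19.1% of those tested on the arrays. The windows of the 3 lower members lie on chr12:76962199-76962498, minus strand, for Max, on chr6:86669110-86669409, minus strand, for Mxd1, and on chr2:119896978-119897277, plus strand, for Mga. That of the higher member Mxd3 lies on chr13:55329682-55329981, minus strand. The called member Mxi1 has 3 windows, none of which holds either motif, and they are not printed.
Max: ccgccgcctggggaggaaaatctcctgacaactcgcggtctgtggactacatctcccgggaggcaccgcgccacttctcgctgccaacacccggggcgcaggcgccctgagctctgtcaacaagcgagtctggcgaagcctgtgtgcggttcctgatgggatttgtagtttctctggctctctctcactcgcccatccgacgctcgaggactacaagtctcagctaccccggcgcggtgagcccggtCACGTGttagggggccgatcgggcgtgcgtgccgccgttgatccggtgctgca
Mxd1: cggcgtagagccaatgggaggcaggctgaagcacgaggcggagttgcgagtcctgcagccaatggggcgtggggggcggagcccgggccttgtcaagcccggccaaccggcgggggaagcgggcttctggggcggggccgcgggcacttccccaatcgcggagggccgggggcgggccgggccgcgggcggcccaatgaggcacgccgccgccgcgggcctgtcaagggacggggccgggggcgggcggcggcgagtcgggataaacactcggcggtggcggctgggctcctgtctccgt
Mga: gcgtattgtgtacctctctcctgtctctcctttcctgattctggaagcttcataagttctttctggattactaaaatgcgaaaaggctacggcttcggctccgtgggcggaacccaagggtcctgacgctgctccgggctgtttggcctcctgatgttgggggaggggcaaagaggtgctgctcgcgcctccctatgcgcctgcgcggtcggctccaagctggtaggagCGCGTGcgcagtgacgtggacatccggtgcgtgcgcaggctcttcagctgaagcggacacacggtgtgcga
Mxd3: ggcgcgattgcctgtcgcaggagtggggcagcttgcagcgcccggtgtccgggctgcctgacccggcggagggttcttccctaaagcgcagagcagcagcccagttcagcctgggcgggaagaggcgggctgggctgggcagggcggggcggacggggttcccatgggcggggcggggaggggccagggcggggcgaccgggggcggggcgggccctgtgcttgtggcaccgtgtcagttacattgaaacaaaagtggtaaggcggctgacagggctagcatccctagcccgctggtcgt
For the 3 uncalled genes with the motif, the 30 bases around it are given. The motif begins 219 bases before the start in Mxd4, 123 before it in Mnt and 40 before it in Mlx.
Mxd4: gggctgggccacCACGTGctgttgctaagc
Mnt: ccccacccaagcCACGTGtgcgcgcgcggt
Mlx: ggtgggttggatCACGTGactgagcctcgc

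Myc, the activating partner of MAX, was bright in both groups and its groups overlapped. Its only probe set gave 4263, 2452 and 3072 on the clone arrays, against 2631 and 2943 on the transgenic arrays. The first clone array was the highest and the second clone array the lowest of all 5. The difference was 0.19 (SE 0.20, 95% confidence interval -0.27 to 0.65, adjusted p = 0.476), an interval that runs from 0.832-fold to 1.57-fold. It was -0.02 without the first clone array and 0.38 without the second, where it was still not called (adjusted p = 0.0801).

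Mycn, which encodes the MYC relative best known from embryonic and neural cells, was dim, and its probe sets went different ways. The brightest, 1425923_at, gave 177.9, 37.8 and 48.3 on the clone arrays, against 140.3 and 319.4 on the transgenic arrays, so that the groups overlapped through the first clone array (difference -1.34, SE 0.54, adjusted p = 0.0775). Without that array the difference was -1.89 and was called lower (adjusted p = 0.00886). A second probe set, 1417155_at, lay below the filter and had the clone arrays on top, at 120.9, 184.7 and 49.3 in clone and 26.3 and 20.6 in transgenic cells. The third, also below the filter, gave 60.7 to 83.4 in clone and 65.5 to 88.1 in transgenic cells. No direction for Mycn can be read from these values.

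Max, the partner that MYC needs to bind DNA and the usual partner of MXD proteins, fell in clone cells. It gave 1374, 1583 and 1259 on the clone arrays, against 3037 and 3072 on the transgenic arrays. The clone arrays lay close together and far below both transgenic arrays, which differed from each other by 0.02 on the log2 scale. Max was 2.17-fold lower (difference -1.12, SE 0.11, adjusted p = 0.000115). It has 1 probe set here, so no other one bears on that value.

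The MXD genes encode MAX partners that recruit the SIN3 corepressor and its histone deacetylases, and they did not move together. Mxd1 fell the furthest of the members called. Its brightest probe set gave 125.5, 131.3 and 153.1 on the clone arrays, against 454.0 and 478.4 on the transgenic arrays, a 3.11-fold lower level (difference -1.64, SE 0.18, adjusted p = 0.000151). A second probe set gave 115.1, 123.2 and 102.8 in clone and 335.0 and 426.9 in transgenic cells (difference -1.58, adjusted p = 0.000318 in the fit over all probe sets). The remaining one was below the filter, at 15.6 to 17.6 in clone and 34.6 to 97.7 in transgenic cells, and there too every clone array lay below both transgenic ones.

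Mxi1, which encodes a further member of this family, also called MXD2, rose in clone cells. Its brightest probe set gave 2071, 2202 and 2343 on the clone arrays, against 1220 and 1248 on the transgenic arrays, a 1.77-fold higher level (difference 0.83, SE 0.10, adjusted p = 0.000251). In its other probe set the lowest clone array lay narrowly above the higher transgenic array. This probe set gave 552.7, 777.4 and 768.6 in clone and 514.6 and 396.1 in transgenic cells (difference 0.59, adjusted p = 0.0315 in the fit over all probe sets). In that fit without the filter it was not called (adjusted p = 0.0626).

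Mxd3, the family member that is known to be expressed in dividing cells, rose too, with a wider spread. Its brightest probe set gave 799.1, 518.5 and 649.4 on the clone arrays, against 292.6 and 388.5 on the transgenic arrays (1.86-fold, difference 0.90, SE 0.20, adjusted p = 0.00702). The second clone array was the lowest clone array in each of its 3 probe sets. A second probe set was called higher, at 387.3, 239.4 and 382.8 in clone and 146.5 and 215.9 in transgenic cells (difference 0.82, adjusted p = 0.0285). In the fit without the filter it was not called (adjusted p = 0.0666). In the third the groups overlapped, at 706.5, 347.9 and 569.5 in clone and 360.5 and 258.3 in transgenic cells (difference 0.73, adjusted p = 0.0621). Without the first transgenic array the gene's difference was 0.70 and was not called (adjusted p = 0.0689).

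Mxd4 depended on the probe set. The brightest gave 271.0, 307.3 and 297.9 on the clone arrays, against 403.5 and 331.2 on the transgenic arrays, and was not called (difference -0.31, SE 0.16, adjusted p = 0.159). Probe set 1434379_at was called lower, at 148.9, 133.1 and 212.5 in clone and 371.2 and 338.4 in transgenic cells (difference -1.04, adjusted p = 0.00473). Probe set 1422575_at gave 211.3 to 249.7 in clone and 197.5 to 217.2 in transgenic cells (difference 0.15, adjusted p = 0.518). The fourth lay below the filter. The probe sets of Mxd4 thus do not give 1 answer for the gene.

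**Figure D2:**
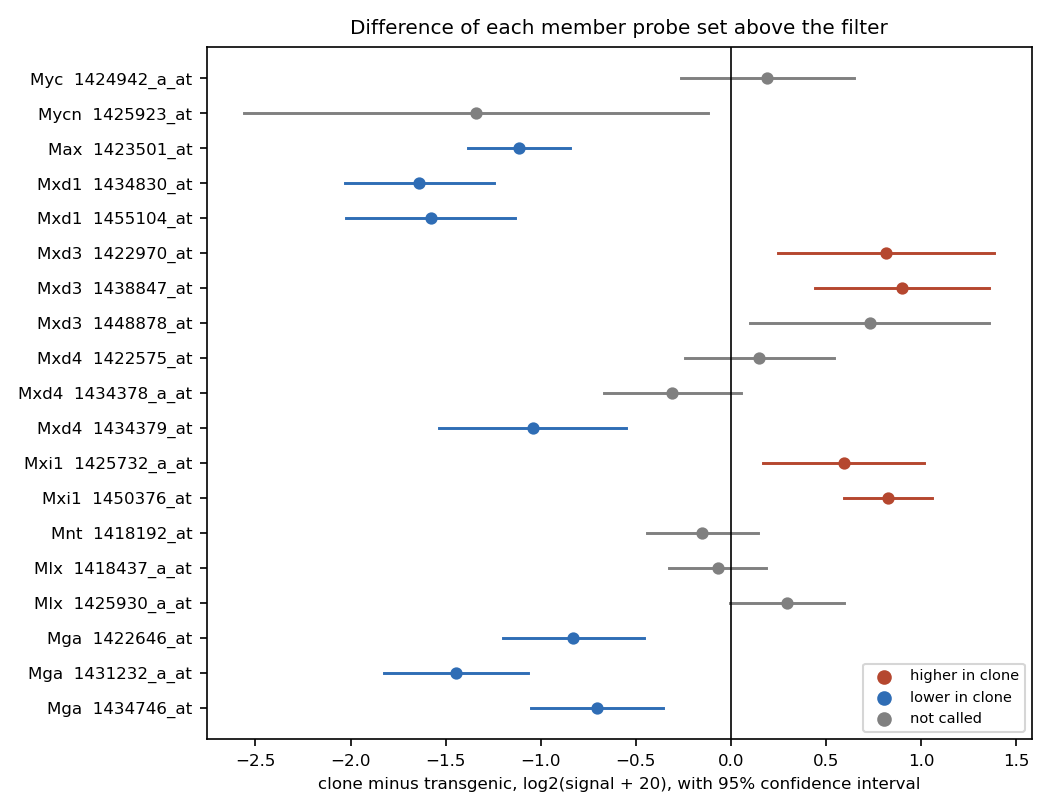
Difference of each of the 19 member probe sets above the filter, clone minus transgenic on the log2(signal + 20) scale (horizontal axis), with its 95% confidence interval. Red points were called higher, blue points lower and grey points were not called in the fit over all probe sets. Both Mxd1 and all 3 Mga probe sets lie left of 0, both Mxi1 and all 3 Mxd3 probe sets lie right of it, and those of Mxd4 are spread over both sides.

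Mnt, which encodes a broadly expressed MAX partner that opposes MYC, was not called. It gave 961.9, 935.5 and 869.8 on the clone arrays, against 920.3 and 1141 on the transgenic arrays (difference -0.15, 95% confidence interval -0.44 to 0.14, adjusted p = 0.372). Without the second transgenic array the difference was 0.0020. Its other probe set was below the filter, at 26.4 to 46.4 in clone and 7.5 to 28.9 in transgenic cells.

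Mlx encodes the MAX-like partner of the glucose-sensing factors MLXIP and MLXIPL and of some MXD proteins. Its brightest probe set gave 749.0, 772.2 and 766.7 on the clone arrays, against 821.8 and 780.3 on the transgenic arrays (difference -0.07, 95% confidence interval -0.32 to 0.18, adjusted p = 0.644). The other gave 670.9, 748.6 and 766.0 in clone and 635.1 and 545.5 in transgenic cells (difference 0.30, adjusted p = 0.102). Neither was called, the clone arrays lay below both transgenic arrays in the first and above both in the second, and their mean difference was 0.11 (adjusted p = 0.413).

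Mga, which encodes the largest protein of the network and joins MAX to a Polycomb repressive complex, fell in clone cells. Its brightest probe set gave 258.2, 291.7 and 222.7 on the clone arrays, against 806.2 and 663.7 on the transgenic arrays, a 2.72-fold lower level (difference -1.44, SE 0.17, adjusted p = 0.000225). Probe set 1422646_at gave 226.6, 266.2 and 207.0 in clone and 427.3 and 427.8 in transgenic cells (difference -0.83, adjusted p = 0.00372). Probe set 1434746_at gave 340.6, 325.4 and 341.2 in clone and 633.4 and 492.7 in transgenic cells (difference -0.70, adjusted p = 0.00602). All 3 had every clone array below both transgenic arrays, and 2 more probe sets were below the filter.

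Markers of T cells and of other cell types differed between the cultures. Of 10 T cell markers tested, 1 was higher in clone, 5 were lower and 4 were not called. Of all genes, 22% were called higher and 21.7% lower. The T cell receptor chain gene Cd3e averaged 5839 ± 600 in clone and 5102 ± 316 in transgenic cells (SD, n = 3 and 2) and was not called. Cd8a averaged 8808 ± 492 in clone and 14192 ± 1849 in transgenic cells and was lower in clone (difference -0.68, adjusted p = 0.000865). The summed signal of the 10 was 73521 to 83854 on the clone arrays, against 94351 and 101867 on the transgenic arrays. Of 18 myeloid markers 14 were tested, of which 11 were lower in clone, 3 were not called and 0 were higher (limma, 1 higher at an unadjusted p under 0.05). Their summed signal over the 18 was 8843 to 10313 on the clone arrays, against 21659 and 22672 on the transgenic arrays, and none was at 0. The macrophage lysozyme gene Lyz2 gave 237.1 to 326.9 in clone and 3497 and 5549 in transgenic cells, and the myeloid receptor gene Cd14 gave 31.9 to 57.2 in clone and 304.0 and 487.5 in transgenic cells. Of 5 NK cell markers 3 were tested, of which 2 were lower in clone and 1 was not called. The granzyme gene Gzma gave 1438 to 1759 in clone and 20849 and 22169 in transgenic cells (difference -3.74), and Eomes, a T-box factor gene, gave 62.8 to 90.3 in clone and 1516 and 1700 in transgenic cells (difference -4.14). Both are also known from activated CD8 T cells. The summed signal of the 5 was 1755 to 2020 on the clone arrays, against 22606 and 24106 on the transgenic arrays. Most of each sum was Gzma. Klre1, the uncalled one, gave 69.9 to 106.1 in clone and 133.7 and 179.2 in transgenic cells. Ncr1 and Klra8 were below the filter. They averaged 83.2 and 49.1 in clone, against 66.85 and 15.8 in transgenic cells. Of 9 B cell markers 6 were tested, and they gave no common direction, with 1 higher in clone, 1 lower and 4 not called. The higher one was Ebf1, at 138.0 to 252.6 in clone and 25.3 and 13.5 in transgenic cells, and the lower one was Cd79b, at 2.70 to 46.0 in clone and 654.5 and 594.0 in transgenic cells. Their summed signal over the 9 was 1176 to 1374 on the clone arrays, against 1733 and 1615 on the transgenic arrays. Of 2 tested CD4 T cell markers 0 were called (limma, also 0 at an unadjusted p under 0.05), and the 1 tested erythroid marker, Hba-a1, was not called (difference -0.70, adjusted p = 0.122). Between the transgenic arrays, the second minus the first gave a median log2 difference of 0.50 over the tested myeloid markers. It was above 0 in 11 of 14. The median was 0.16 over the NK cell, -0.07 over the T cell, -0.22 over the B cell and -0.23 over the CD4 T cell markers tested. The same difference was 0.07 for Mxd1, 0.02 for Max and -0.27 for Mga. Among the 11 lower myeloid markers, Fcgr3 (clone mean 13.5), Tyrobp (23.0) and Cd14 (40.4) passed the filter only through the transgenic arrays. So did Cybb (47.0), Clec4d (48.1) and Fcer1g (62.2). Passing in this way favours a lower call. Eomes (clone mean 72.8) and Cd79b (26.7) likewise passed the filter only through the transgenic arrays. Ebf1 (transgenic mean 19.4) passed it only through the clone arrays. The markers given by name were chosen after their values were seen. The part of other cells in the lower Max, Mxd1 and Mga signals was not tested. In such mixed cultures fewer cells of a type and less RNA per cell cannot be told apart.

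Cell division genes were counted beside the members because Mxd3 is known from dividing cells and MYC drives the growth that precedes division. Of 26 tested, 10 were higher in clone, 0 were lower (limma, also 0 at an unadjusted p under 0.05) and 16 were not called, against 22% higher and 21.7% lower of all genes, with a median difference of 0.53. The groups did not overlap for 11 of the 26, against 64.5% of all genes. They included the mitotic checkpoint kinase gene Bub1b (1266 ± 351 in clone and 422 ± 45.6 in transgenic cells, SD, n = 3 and 2, difference 1.51), the anaphase activator gene Cdc20 (1.34) and the mitotic kinase gene Plk1 (1.19). The count depended on single arrays. It was 18 without the second clone array, 4 without the first transgenic array and 6 without any 1 of the other 3, and 1 gene was lower without the first clone array. Set against the mean of the first and the third clone arrays, the second was lower in all 26 genes, with a median log2 difference of -0.71. The summed signal of the 26 was 82878, 51966 and 80348 on the clone arrays, against 50220 and 55580 on the transgenic arrays, so that the second clone array lay between the transgenic arrays. On that array Myc differed from the mean of the other clone arrays by -0.56, Mycn by -1.01 and Mxd3 by -0.46, whereas Mxd1 differed by -0.07, Mxi1 by -0.00022, Mlx by 0.03, Mnt by 0.03, Mxd4 by 0.11, Max by 0.26 and Mga by 0.26. This is 1 array, and the relation between division and these members was not tested. By the distance of their centred log2 values over the 5 arrays, the genes nearest to Myc were Ptch1, the Hedgehog receptor gene, the spindle protein gene Ckap2l and Inpp5j (root mean square distances 0.061, 0.072 and 0.080). None of them was called, which their nearness to Myc largely sets. They are the nearest of 12446 genes over only 5 values, and a link to Myc or to division was not tested.

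**Figure D3:**
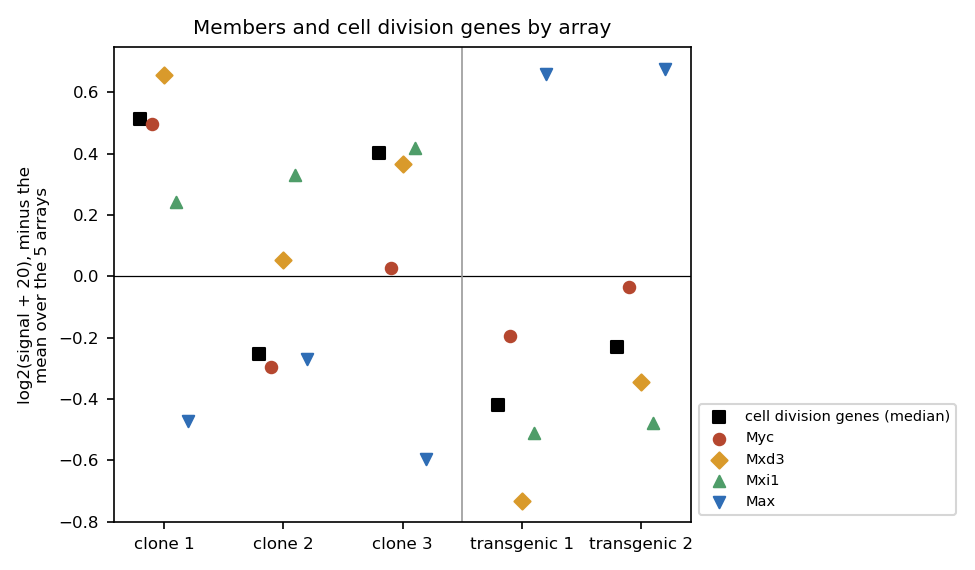
Log2(signal + 20) of Myc, Mxd3, Mxi1 and Max and the median of 26 cell division genes on each array (horizontal axis), each minus its mean over the 5 arrays. On the second clone array Myc (-0.30) and the division genes (-0.25) stand together below 0, while Mxi1 (0.33) stays with the other clone arrays and Max separates the groups on all arrays. Mxd3 on that array (0.05) stands above 0 and above both transgenic arrays (-0.73 and -0.35).

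Genes known to be activated by MYC were mostly higher in clone. Of 44 tested, 26 were called higher, 3 lower and 15 not, with a median difference of 0.44, against 22% and 21.7% of all genes and a median of -0.01. The list was chosen with earlier results of these data known, so this count is no independent test. Slc7a5, which encodes a chain of the large neutral amino acid transporter, gave 3987, 2162 and 3762 on the clone arrays, against 311.4 and 345.2 on the transgenic arrays (difference 3.21, SE 0.24, adjusted p = 2.04e-05). The nucleoside diphosphate kinase gene Nme1 (1.74) and both serine hydroxymethyltransferase genes of one-carbon metabolism, Shmt2 (1.73) and Shmt1 (1.43), followed. These 3 had every clone array above both transgenic arrays. The lower genes were Tfrc, the transferrin receptor gene (-0.67), the cell cycle phosphatase gene Cdc25a (-0.54) and the purine synthesis gene Ppat (-0.49), named after their values were seen. The lactate dehydrogenase gene Ldha (-0.02, adjusted p = 0.893) and Odc1, which encodes the polyamine enzyme ornithine decarboxylase (0.43, adjusted p = 0.0875), are known MYC targets that were not called and are named after their values were seen. CACGTG stood in the promoter window of 9 of the 37 listed genes that have one (24.3%) and CACGCG in that of 11 (29.7%), against 11.4% and 19.1% of the genes tested on the arrays that have a window.

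Genes known to be repressed by MYC divided evenly. Of 7 tested, 3 were higher, 3 lower and 1 was not called, against 22% higher and 21.7% lower of all genes. The growth arrest genes Gadd45b (difference -2.10) and Gadd45a (-1.56) were lower, while Ndrg2 (1.96) and Klf6 (1.93), a zinc finger factor gene, were higher. Gadd45a (clone mean 79.8) passed the filter only through the transgenic arrays, which favours a lower call. At the 60th percentile filter 6 genes of the list were tested, with 3 higher and 2 lower. Gadd45b gave 485.2, 504.9 and 361.9 on the clone arrays, against 2235 and 1752 on the transgenic arrays. The median of the 7 was -0.12.

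Cofactors of both arms of the network had called genes in both directions. Of 14 MYC coactivator genes 5 were higher, 2 lower and 7 not called, with a median of 0.10, against 43.8% of all genes called (22% higher and 21.7% lower), a share near theirs. Without the first transgenic array 2 were higher, and without the second 3. Ruvbl1, a helicase-like ATPase gene (0.93), and the acetyltransferase gene Kat2a (0.58) were higher, and Ccnt1 (-1.08) and Ccnt2 (-0.55), which encode cyclin subunits of the elongation kinase P-TEFb, were lower. Of 11 genes for the corepressors that MXD and MNT recruit, 4 were higher, 3 lower and 4 not called (median 0.06), and 1 was lower without the first transgenic array. Of all genes, 22% were called higher and 21.7% lower. Without cross-hybridizing probe sets 1 of 10 corepressor genes tested was lower. The scaffold gene Sin3b gave 3025, 3351 and 3430 on the clone arrays, against 4927 and 4731 on the transgenic arrays (difference -0.56, adjusted p = 0.00138), on a probe set that the array's design marks as cross-hybridizing. Its complex members Sap30 (0.88), Rbbp7 (0.88) and Hdac1 (0.48) were higher, Rbbp7 also on a cross-hybridizing probe set.

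Of all genes, 22% were called higher and 21.7% lower. The Polycomb complex that contains MGA had 4 of 8 tested genes higher, 1 lower and 3 not called (median 0.25). Rnf2, which encodes its ubiquitin ligase RING1B, gave 1100, 809.5 and 845.5 on the clone arrays, against 3095 and 2892 on the transgenic arrays (difference -1.70, SE 0.14, adjusted p = 3.77e-05). Yaf2 (1.35), E2f6 (1.08) and Tfdp1 (0.66) were higher. Rnf2 was the only member of the 8 called in the direction of Mga.

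All 3 tested genes around MLX were called, against 43.8% of all genes. Mlxip, whose product pairs with MLX and senses glucose phosphates, gave 656.1, 806.6 and 561.4 on the clone arrays, against 1552 and 1383 on the transgenic arrays (difference -1.11, adjusted p = 0.000672). Its 2 known targets differed in direction: Txnip, an inhibitor of glucose uptake, was lower (difference -1.65, SE 0.15, adjusted p = 5.89e-05), and the related arrestin gene Arrdc4 was higher (1.24, SE 0.18, adjusted p = 0.000689). Mlxipl was below the filter.

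Over all genes 43.8% were called (22% higher and 21.7% lower), a share near those of both lists in this paragraph. Of 16 genes that set the stability of MYC protein, 3 were higher in clone, 5 were lower and 8 were not called (median -0.02). Without the first transgenic array 1 was higher, and without the second 3 were lower. Usp28, a deubiquitinase gene that is known to protect MYC, gave 231.7, 210.6 and 189.6 on the clone arrays, against 980.7 and 861.2 on the transgenic arrays (difference -2.03, SE 0.15, adjusted p = 2.17e-05). The kinase gene Pim2 was lower too (-1.77), while Cip2a, whose product shields MYC from a phosphatase (1.46), and Aurka (0.67) were higher. Fbxw7, the ubiquitin ligase subunit gene that directs MYC to degradation, was not called (-0.12, adjusted p = 0.577) and is named after its value was seen. Of 10 other genes for factors that bind E-boxes, 4 were higher, 1 was lower and 5 were not called (median 0.02), among them Bhlhe40 (1.03), Arntl (0.54) and Usf2 (0.47), which were higher, and Mitf (-0.75), which was lower and lost its call without either transgenic array or without the third clone array.

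**Figure D4:**
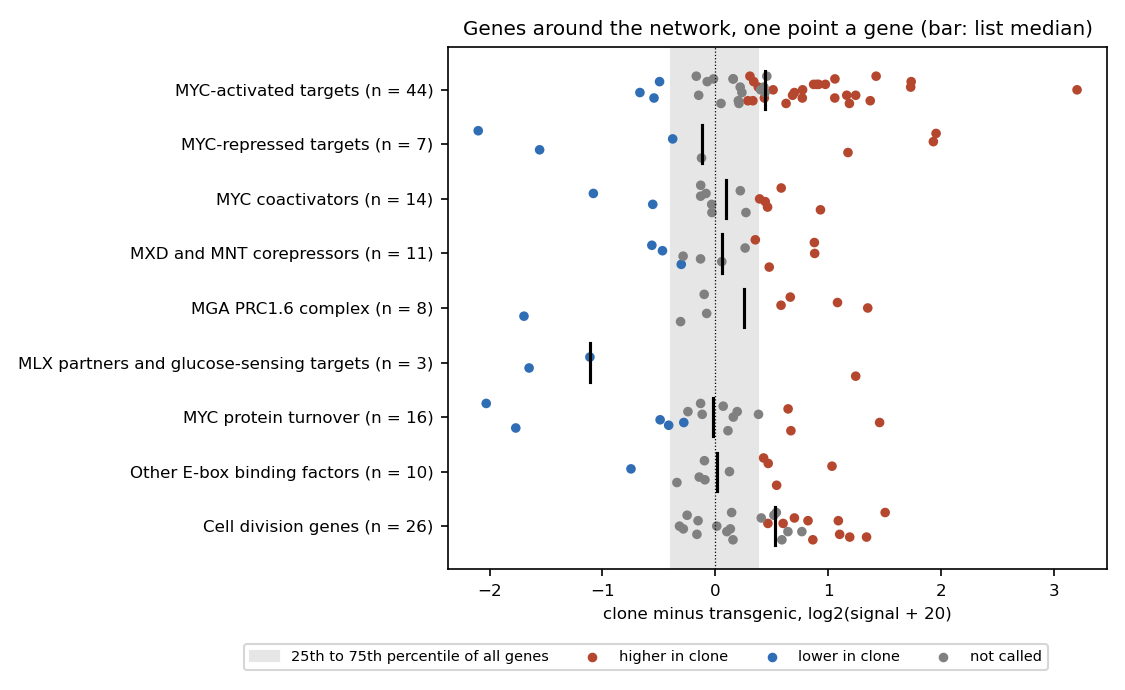
Difference of each tested gene, clone minus transgenic on the log2(signal + 20) scale (horizontal axis), in 9 lists of genes around the network, with black bars at list medians and a grey band from the 25th to the 75th percentile of all genes tested (-0.40 to 0.38). Red points were called higher, blue points lower and grey points were not called. The medians of the MYC-activated targets (0.44) and of the cell division genes (0.53) lie right of the band, that of the 3 genes around MLX (-1.11) lies left of it, and the other medians lie inside it. All lists were chosen with earlier results of these data known.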

How the data were processed

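Total RNA (8 µg a sample) was hybridised to one-colour Affymetrix mouse arrays, per the labels' protocols. The authors deposited 1 linear array intensity for each probe set, made in GCOS, per the submitters' processing notes. The 2% trimmed mean of every array is 500, so the arrays were scaled and were used as deposited. The table holds no detection calls. The software version is not given. The number of arrays limits the precision (median SE 0.16 on the log2 scale). Median signals were 132.3 to 133.0 on clone and 140.7 and 141.9 on transgenic arrays.

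Of 45101 probe sets, 64 controls were left out, and 34945 name 1 gene, 932 several and 9160 none. Values were taken as log2(signal + 20), which understates differences of dim genes. A probe set was tested if its mean signal reached the 40th percentile (88.2), and the brightest represented its gene. The fit of clone against transgenic arrays used limma 3.58.1 in R 4.3.3 (lmFit, then eBayes with trend), two-sided, adjusted by Benjamini-Hochberg over all genes or all probe sets. The fit was tested on simulated data. P-values measure only the spread among 3 vials of the same clone and that of 2 mice. Members and lists were chosen with earlier results of these data known. Text names all members and up to 4 called genes a list with the largest differences, or up to 2 uncalled genes of highest signal where fewer than 2 are called, and other genes are marked. The cell type marker lists are given by counts with examples. Of the genes named, Nme1, Shmt2, Odc1, Ppat, Cdc20, Sin3b, Rbbp7, Cip2a, Clec4d and Klra8 were read from probe sets counted here as cross-hybridizing. Alternatives were quantile normalization, other pseudocounts, a floor, other filters, the mean over probe sets, no cross-hybridizing probe sets, other variance models, a test for over 1.5-fold, the replicate block and each array left out. The labels name no pairing of the arrays by replicate number. Same-numbered arrays had deviations from their group means that correlated at -0.03 and -0.08. The deviations of 2 transgenic arrays are exact opposites, so these values are not separate checks and cannot exclude a pairing. Promoter windows are RefSeq's (GRCm38.p6). Figures used matplotlib 3.10.9.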

Additional observations from a re-analysis of the deposited data

How the results depend on the processing

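The lower calls of Max, Mxd1 and Mga held under all 17 alternatives, that of Mxi1 as higher under 16 of 17 and that of Mxd3 under 15 of 17. Mxd3 was not called without the first transgenic array, and neither gene was called in the test for over 1.5-fold (limma's treat), which gave 0 higher members (1 at an unadjusted p under 0.05) and 3 lower ones. In the same test the member probe sets called were 0 higher (1 unadjusted) and 4 lower, the genes of the 9 lists around the network 19 higher and 7 lower, and the MYC-activated targets 12 higher and 0 lower (0 unadjusted), in place of 4 and 7, 60 and 20, and 26 and 3. A test against a larger difference calls fewer genes by construction. Without a filter, and with eBayes without trend, 2 member probe sets were called higher, and with the mean over probe sets 1 MYC-activated target was lower; the cause was not tested. With the replicate block 2 members were higher and 3 lower, and 20 MYC-activated targets were higher, and the block changed no call of a member gene. Leaving out 1 array in turn gave 1 to 2 higher and 3 to 4 lower members, 2 to 4 higher and 6 to 8 lower member probe sets, 41 to 70 higher and 13 to 20 lower genes of the lists, and 20 to 27 higher and 1 to 3 lower MYC-activated targets. The lowest counts of higher members (1), of lower list genes (13) and of lower targets (1) came without the first transgenic array, and 2 higher probe sets were called without it or without the third clone array. The sign turned for 3 uncalled members: Myc ranged from -0.020 (without the first clone array) to 0.38 with 1 array left out, Mnt from -0.30 to 0.0020 (without the second transgenic array), and Mlx was at 0.11 with the mean over probe sets. Without the first clone array Mycn was called lower (-1.89). At the 60th percentile filter Mycn was not tested. With no detection calls, values near or below the filter level may lie in the background.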
